A study of Rattus norvegicus with 12 samples.

Results

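The 10 tubulin isoforms described here are Tuba1a, Tuba1b, Tuba1c, Tubb2a, Tubb2b, Tubb3, Tubb4b, Tubb5, Tubb6 and Tubg1. They were followed in the epididymal fat pad of male Sprague-Dawley rats, among 14506 named genes in all. Each gene was taken from probe sets that carried its symbol alone; where there were several, the one used was chosen by its mean level over the 12 arrays, the brightest being kept. That choice used the level over all rats and no difference between groups. The list of genes itself was drawn up with results of these data known, so a shared direction of its members is a description and not independent support for a change of tubulins as a family. The rats were 4 fed animals, 4 fasted until phase 2 (P2) and 4 fasted until phase 3 (P3), each measured once on an Affymetrix Rat Gene 1.0 ST array. In phase 2 a fasting animal lives mainly on fat and spares protein, and in phase 3 it breaks down body protein faster. The extraction protocol speaks of liver, whereas every other label names white adipose tissue, and in fed rats the adipocyte gene Adipoq stood at 13.15 on the log2 scale. The 13 adipocyte markers averaged 11.88 in fed rats and the 13 hepatocyte markers 5.43. The labels do not give the rats' age or the length of each fast.

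Microtubules are hollow filaments built from dimers of alpha-tubulin and beta-tubulin, and gamma-tubulin is the form that seeds new filaments at the centrosome and other sites. Mammals have several alpha and beta genes, whose proteins are nearly alike in the core and differ mostly at the acidic tail, where many modifications and microtubule-binding proteins act. In fat cells microtubules run through the thin layer of cytoplasm around the lipid droplet and carry vesicles, among them those with the insulin-dependent glucose transporter. Tubulin mRNAs are also known to be unstable when free tubulin is plentiful, through a factor, Ttc5, that recognises the start of the growing protein.

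To show what the genes share beside their coding sequence, the 250 bases before the start of the RefSeq gene are printed for the alpha genes Tuba1a and Tuba1b and the beta genes Tubb4b and Tubb6, which had the largest falls, and for Tuba8, an alpha gene outside the 10 that rose. Capitals mark matches, on either strand, to the CCAAT box (spelled as its name), the GC box GGGCGG, the TATA box TATAAA, the E-box CACGTG and the forkhead core TGTTTAC. Matches to different motifs did not overlap in these promoters.
Tuba1a, GRCr8 chr7:131995820-131996069, minus strand: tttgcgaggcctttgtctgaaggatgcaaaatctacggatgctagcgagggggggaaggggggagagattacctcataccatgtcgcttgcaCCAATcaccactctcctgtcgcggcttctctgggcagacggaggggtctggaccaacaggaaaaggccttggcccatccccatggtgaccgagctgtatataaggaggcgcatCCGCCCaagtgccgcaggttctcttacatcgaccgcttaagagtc
Tuba1b, GRCr8 chr7:131972588-131972837, minus strand: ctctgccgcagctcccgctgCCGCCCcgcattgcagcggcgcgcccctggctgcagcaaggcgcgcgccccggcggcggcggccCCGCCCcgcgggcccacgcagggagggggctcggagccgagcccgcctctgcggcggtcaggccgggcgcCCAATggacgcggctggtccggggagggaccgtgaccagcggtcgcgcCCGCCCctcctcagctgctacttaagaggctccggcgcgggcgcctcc
Tubb4b, GRCr8 chr3:28438456-28438705, minus strand: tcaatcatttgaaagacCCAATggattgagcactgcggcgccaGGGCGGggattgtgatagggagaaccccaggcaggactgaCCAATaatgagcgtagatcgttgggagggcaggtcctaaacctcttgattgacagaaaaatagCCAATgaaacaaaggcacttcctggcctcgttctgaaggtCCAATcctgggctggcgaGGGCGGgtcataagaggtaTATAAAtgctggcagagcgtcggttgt
Tubb6, GRCr8 chr18:63213037-63213286, plus strand: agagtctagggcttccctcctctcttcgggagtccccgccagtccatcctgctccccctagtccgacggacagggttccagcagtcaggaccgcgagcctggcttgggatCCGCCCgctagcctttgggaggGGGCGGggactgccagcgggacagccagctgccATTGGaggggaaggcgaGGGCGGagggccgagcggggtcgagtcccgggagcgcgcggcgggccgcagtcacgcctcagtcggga
Tuba8, GRCr8 chr4:156112022-156112271, plus strand: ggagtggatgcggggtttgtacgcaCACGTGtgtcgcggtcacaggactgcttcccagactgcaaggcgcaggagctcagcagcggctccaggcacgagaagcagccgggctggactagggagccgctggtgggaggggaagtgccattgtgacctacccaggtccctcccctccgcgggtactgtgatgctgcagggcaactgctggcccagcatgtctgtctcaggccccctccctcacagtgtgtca
A CCAAT box was found in 9 of the 10 isoform promoters, where 35.6% of the promoters of 11968 tested genes held one. Of those 9, Tubb4b had 4 copies, Tubg1 and Tuba1c had 2 each, and Tubb2a was the isoform with none. A GC box was found in 8 of the 10, against 47.3% of all promoters, and Tubb2b and Tubg1 lacked it. A TATA box was present in Tubb4b and Tubb2a, 27 and 31 bases before the start, against 11.3% of all promoters. An E-box was found in Tubb5 alone among the 10 (6.92% of all promoters), and the forkhead core in none (2.57%). The Tuba8 window held no CCAAT, GC or TATA box and 1 E-box. Other tubulin genes outside the 10 did hold such boxes: Tuba3a and Tuba3b had 3 CCAAT boxes each, and Tuba4a had 2 GC boxes. The windows of Tubal3 and Tubd1 held none of the motifs. These are matches of letters and were not shown to be bound. Isoform promoters in RefSeq's table of assembly GRCr8 were matched by symbol for all 10 genes, and in it Tuba1a, Tuba1b and Tuba1c all lie on chromosome 7 and Tubb2a and Tubb2b on chromosome 17.

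Before the results, 3 features of the arrays matter for reading them. The median of the tested genes differed by -0.155 between P3 and fed arrays, so P3 changes are also given with each array centred on that median. Among the P3 rats, rat 1 had the lowest level for 9 of the 10 isoforms, and rat 3 had the lowest for Tuba1a but the highest for 6 others. The upper quartile of rat 3's array was 7.83, whereas the other arrays lay between 7.94 and 8.02. Tubulin genes are similar in sequence, and RefSeq lists 30 tubulin pseudogenes in this genome, of which 14 are named for Tuba1b. How far probes of 1 isoform also bind another was not tested.

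In both fasting phases the isoforms were lower than in fed rats. In phase 2, 9 of the 10 isoforms fell and none rose (limma, Benjamini-Hochberg adjusted p under 0.05 over all genes), where 15.5% of all tested genes fell and 9.66% rose. In phase 3 all 10 fell, where 24.3% of all genes fell and 21.1% rose. The median change of the 10 was -0.70 in P2 and -0.71 in P3 rats on the log2 scale, whereas the median over all genes was 0.01 and 0.05. With centred arrays the same counts of 9 and 10 passed, at medians of -0.64 and -0.55. On that scale the median over all genes was 0.07 in P2 and 0.21 in P3. Values of fasted and fed rats did not overlap for any of the 10 in either phase, where the same was true, as lower values, of 18.4% of all genes in P2 and 22.7% in P3. The tissue was measured in bulk, so fewer cells of a type and less RNA per cell cannot be told apart.

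**Figure D1:**
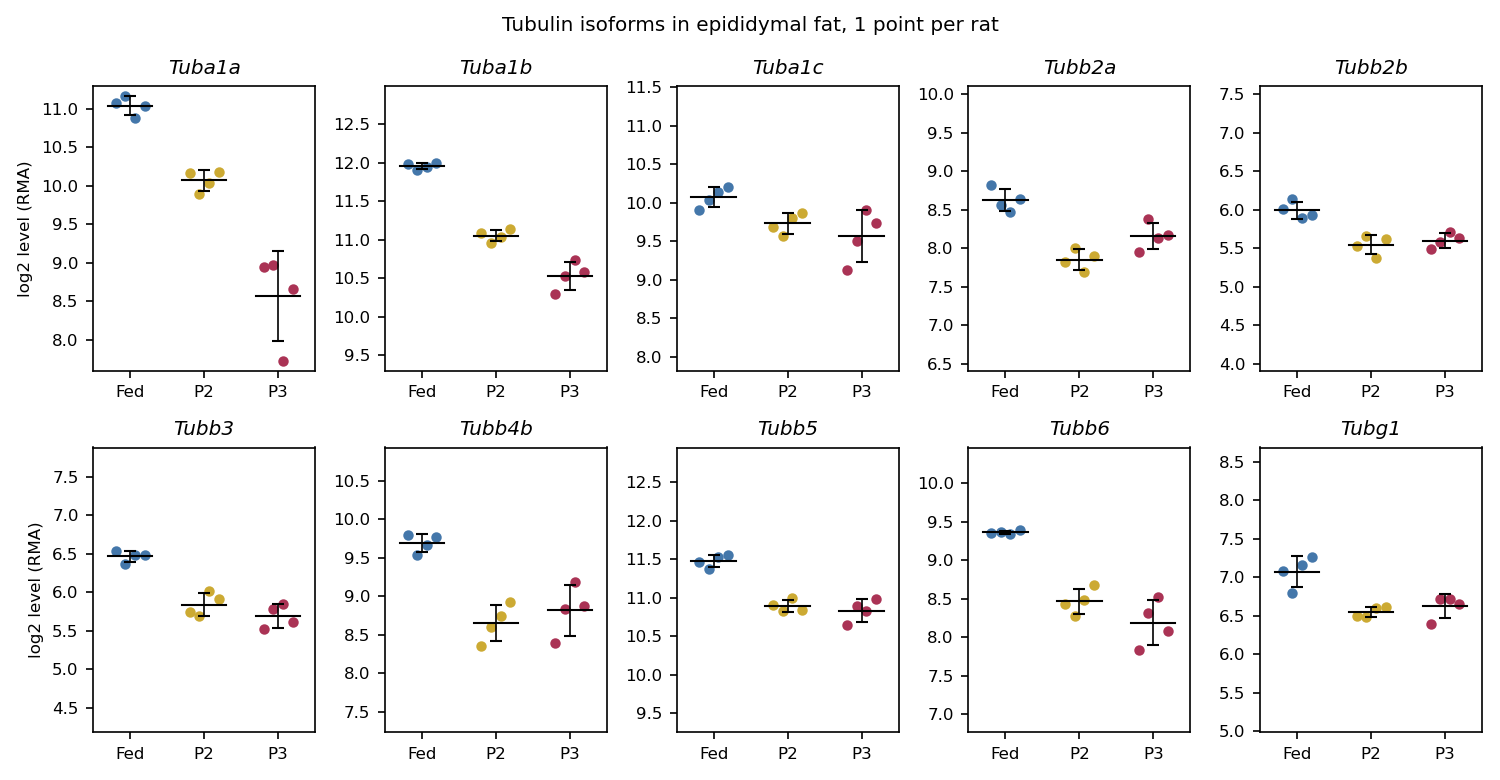
Log2 level (vertical axis, a window of the same height in every panel) of each isoform by group, with 1 point per rat; the black line is the mean and the bar the SD of 4 rats. In every panel but that of Tuba1c each fasted rat lies below each fed rat. For Tuba1c P3 rat 3 and fed rat 1 are both drawn at 9.91, because rounded values are plotted. Before rounding the fed rat was the higher. Tuba1a has the widest difference between P3 and P2, -1.5.

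Among the alpha genes Tuba1a, the form abundant in developing neurons and present in many other cells, changed most. Its log2 level was 11.07, 11.17, 10.88 and 11.04 in the 4 fed rats, 10.17, 9.89, 10.04 and 10.18 in P2 rats, and 8.94, 8.97, 7.72 and 8.66 in P3 rats. The 3 groups did not overlap, and P3 rat 3 was the lowest by a wide gap. Tuba1a fell by 0.97 ± 0.211 (SE) in P2 against fed rats (adjusted p = 0.00365) and fell by 2.47 ± 0.211 in P3 against fed rats (adjusted p = 3.43e-07), to 18.1% of the fed level. Without P3 rat 3 the P3 change was -2.18. It was also lower in P3 than in P2 rats, with a difference of -1.5 ± 0.211 (adjusted p = 0.000115), or -1.21 without that rat.

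Tuba1b, an alpha-tubulin of nearly all cells, followed with a steadier fall. Its fed rats stood at 11.98, 11.91, 11.94 and 12.0, its P2 rats at 11.08, 10.96, 11.03 and 11.14, and its P3 rats at 10.29, 10.53, 10.73 and 10.58. Again no group overlapped another. Tuba1b fell by 0.91 ± 0.0904 in P2 (adjusted p = 8.44e-06) and fell by 1.42 ± 0.0904 in P3 (adjusted p = 1.97e-08), to 37.3% of the fed level. P3 differed from P2 by -0.52 ± 0.0904 (adjusted p = 0.000653). A dimmer probe set of the same gene had changes of -0.69 in P2 and -1.06 in P3 against fed rats, and on it the P3 and P2 rats overlapped.

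Tuba1c, the other member of this alpha group, moved least of the 3. It measured 9.91, 10.03, 10.14 and 10.20 in fed rats, 9.68, 9.57, 9.80 and 9.87 in P2 rats and 9.13, 9.50, 9.91 and 9.74 in P3 rats. P3 rat 3 and the lowest fed rat were within rounding of each other. Its change of -0.34 ± 0.139 in P2 did not pass (adjusted p = 0.0966; alternatives gave 0.0152 to 0.245), and in P3 it fell by 0.50 ± 0.139 (adjusted p = 0.00917).

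All 6 beta genes fell in phase 2 and were still lower than in fed rats in phase 3. Tubb4b, a beta-tubulin of most tissues and of cilia, had levels of 9.79, 9.54, 9.66 and 9.77 in fed rats, 8.36, 8.60, 8.74 and 8.92 in P2 rats and 8.39, 8.83, 9.19 and 8.87 in P3 rats. Its change of -1.04 ± 0.151 in P2 (adjusted p = 0.000204) was the largest of the 10 in that phase, and in P3 it stood at -0.87 ± 0.151 against fed rats (adjusted p = 0.000264). The P3 and P2 rats overlapped, and P3 rat 3 lay above every P2 rat.

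Tubb6, a beta isotype found in many non-neuronal cells, was uniform in fed rats, at 9.36, 9.37, 9.34 and 9.39. It was at 8.43, 8.28, 8.48 and 8.68 in P2 rats and at 7.84, 8.31, 8.52 and 8.08 in P3 rats. Tubb6 fell by 0.90 ± 0.126 in P2 (adjusted p = 0.000151) and fell by 1.18 ± 0.126 in P3 (adjusted p = 3.09e-06), to 44.2% of the fed level. Between the phases it differed by -0.28 ± 0.126 (adjusted p = 0.116), and without P3 rat 3 by -0.39 (adjusted p = 0.0181).

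Tubb5, the general beta-tubulin of dividing and resting cells, was at 11.46, 11.37, 11.53 and 11.55 in fed rats, 10.91, 10.82, 11.0 and 10.84 in P2 rats and 10.64, 10.89, 10.82 and 10.98 in P3 rats. It fell by 0.58 ± 0.0855 in P2 (adjusted p = 0.000214) and fell by 0.65 ± 0.0855 in P3 (adjusted p = 2.33e-05). The fasted groups overlapped, with a difference of P3 from P2 of -0.06 ± 0.0855 (adjusted p = 0.642) and a 95% interval from -0.25 to 0.12.

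Tubb2a, a beta isotype known best from neurons but present elsewhere, was the isoform called higher in P3 than in P2 rats. It had 8.83, 8.57, 8.48 and 8.64 in fed rats, 7.82, 8.01, 7.69 and 7.90 in P2 rats and 7.96, 8.38, 8.14 and 8.18 in P3 rats. It fell by 0.77 ± 0.106 in P2 (adjusted p = 0.000121) and fell by 0.47 ± 0.106 in P3 (adjusted p = 0.00234), and was higher in P3 than in P2 by 0.31 ± 0.106 (adjusted p = 0.0422; alternatives gave 0.0129 to 0.124). The last call was weak, since P3 and P2 rats overlapped and it ended in 9 of 19 alternatives, among them without fed rat 2 or 4, P2 rat 1, 3 or 4, or P3 rat 2, 3 or 4.

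Tubb3, the beta isotype used as a marker of neurons, was at 6.54, 6.37, 6.48 and 6.48 in fed rats, 5.74, 5.69, 6.02 and 5.91 in P2 rats and 5.52, 5.78, 5.85 and 5.61 in P3 rats. It fell by 0.63 ± 0.0959 in P2 (adjusted p = 0.000299) and fell by 0.78 ± 0.0959 in P3 (adjusted p = 1.21e-05). Tubb2b, a beta isotype of the developing nervous system, was at 6.01, 6.14, 5.90 and 5.93 in fed rats, 5.53, 5.66, 5.38 and 5.62 in P2 rats and 5.49, 5.58, 5.71 and 5.63 in P3 rats. Tubb2b fell by 0.45 ± 0.0867 in P2 (adjusted p = 0.00172) and fell by 0.39 ± 0.0867 in P3 (adjusted p = 0.00185). Both were dim in fasted rats, near the 95th percentile (5.66) of 53 olfactory receptor genes, taken as mostly silent in fat, and were not shown there to be above background. Of 14 measured markers of neurons, nerve and Schwann cells, 2 fell and none rose in P2, where 15.5% of all genes fell. In P3 3 of them fell, none rose and 11 did not pass, where 24.3% of all genes fell (3 fell and 4 rose with centred arrays). The median change of the 14 markers was -0.02 in P2 and 0.04 in P3 (0.19 with centred arrays). Their mean level was 5.24 to 5.42 in fed, 5.08 to 5.21 in P2 and 4.89 to 5.15 in P3 rats, all under 5.66. At such levels the medians do not show whether nerve changed. The 3 markers that fell in P3 were S100b (-2.98), Gap43 (-1.25) and Mbp (-1.02), named after their values were seen. The part of nerve in the Tubb3 and Tubb2b values was not tested.

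Tubg1, the main gamma-tubulin, was at 7.08, 6.80, 7.16 and 7.26 in fed rats, 6.5, 6.49, 6.60 and 6.62 in P2 rats and 6.40, 6.72, 6.72 and 6.66 in P3 rats. It fell by 0.52 ± 0.104 in P2 (adjusted p = 0.00197) and fell by 0.45 ± 0.104 in P3 (adjusted p = 0.00268). Fed rat 2 was only just above the highest P3 rats.

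Set against each other, the fasting phases differed for a share of the isoforms near that of all genes. In P3 against P2, 2 of the 10 were lower, Tuba1a and Tuba1b, where 15.1% of all genes were, and 1 was higher, Tubb2a, where 12.8% of all genes were (27.9% in either direction). The same 2 alpha genes were the isoforms whose P3 values lay entirely below the P2 values, as did 14.0% of all genes. As a description, the P2 change was 39.3% of the P3 change for Tuba1a and 63.6% for Tuba1b, but 119% for Tubb4b and 167% for Tubb2a. The 95% intervals of the P3 minus P2 difference were -0.13 to 0.24 for Tubb2b, -0.16 to 0.49 for Tubb4b and -0.15 to 0.30 for Tubg1. None of these 3 differences passed, which does not show that the phases were alike.

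**Figure D2:**
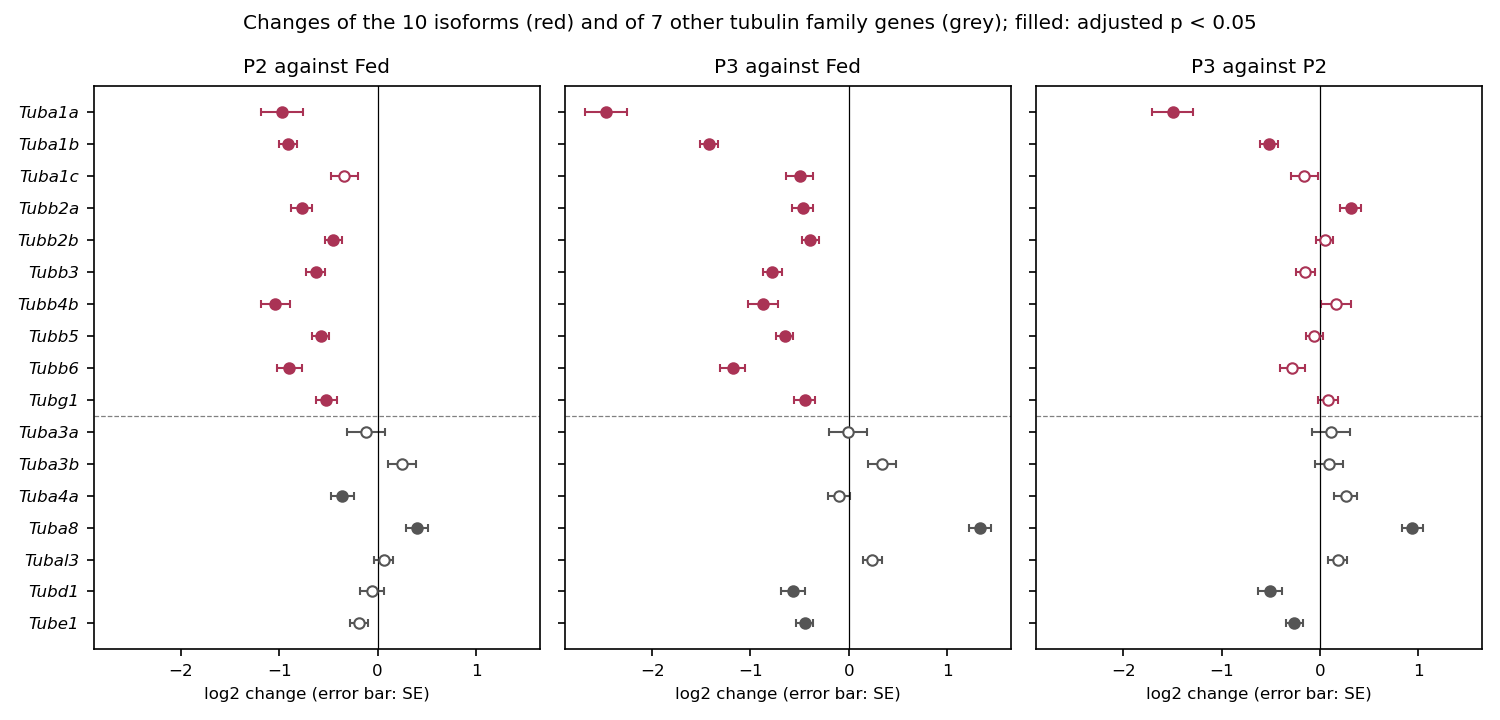
Log2 change (horizontal axis) with its SE for the 10 isoforms (red) and the 7 other measured tubulin genes (grey) in 3 comparisons; filled points had an adjusted p under 0.05. The red points lie left of 0 in both comparisons with fed rats, and the measured difference of Tuba8 in P3 is 1.33.

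Of the 7 other tubulin genes with a probe set of their own, 1 fell and 1 rose in P2, and 2 fell and 1 rose in P3. Over all genes 15.5% fell and 9.66% rose in P2, and 24.3% fell and 21.1% rose in P3. With centred arrays 2 of the 7 fell and 3 rose in P3, where 2670 of the 14506 genes fell and 6115 rose. Tuba8, an alpha isotype of muscle, heart and testis, was at 5.03, 4.65, 4.66 and 4.83 in fed rats, 5.04, 5.27, 5.16 and 5.27 in P2 rats and 6.16, 6.08, 5.89 and 6.36 in P3 rats, so that each group lay above the one before it. The fed and P2 levels lay under 5.66, the 95th percentile of the olfactory receptor genes, so its differences are between measured levels of which one was not shown to be above background, and no fold is given. It rose in P3, with a measured difference of 1.33 ± 0.111 from fed rats (adjusted p = 2.76e-07) and of 0.94 ± 0.111 from P2 rats (adjusted p = 2.82e-05). The rise in P2, 0.40 ± 0.111 (adjusted p = 0.0174; alternatives gave 0.00658 to 0.0584), ended without fed rat 2 or 3 or P2 rat 2 and with a second quantile normalisation. Of 13 epididymis and testis markers, none passed in P2, and 3 rose and none fell in P3, where 21.1% of all genes rose. With centred arrays 7 of these markers rose and none fell, where 6115 of the 14506 genes rose. The mean level of the markers was 4.24 to 4.32 in fed, 4.20 to 4.37 in P2 and 4.37 to 4.65 in P3 rats, all under 5.66. Their part in the Tuba8 value was not tested.

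Tuba4a, an alpha-tubulin made without the usual last tyrosine, averaged 6.83 ± 0.0991 in P2 rats and 7.19 ± 0.0531 in fed rats (SD, n = 4 each). Its fall of 0.36 ± 0.115 in P2 (adjusted p = 0.0345; alternatives gave 0.00338 to 0.0914) ended with centred arrays, with quantile normalisation and when any 1 fed rat or P2 rat 1, 2 or 3 was left out. In P3 it was 0.10 ± 0.115 below fed (adjusted p = 0.498), and with centred arrays 0.05 above. The delta and epsilon tubulins of centrioles and basal bodies were lower in P3 than in fed rats. Tubd1 fell by 0.57 ± 0.122 (adjusted p = 0.00152) and Tube1 by 0.45 ± 0.0881 (adjusted p = 0.000767), and their P2 changes were -0.06 ± 0.122 and -0.19 ± 0.0881 (adjusted p of 0.804 and 0.141). Tubd1 was also lower in P3 than in P2, with a difference of -0.51 ± 0.122 (adjusted p = 0.00593). For Tube1 that difference was -0.26 ± 0.0881 (adjusted p = 0.0413; alternatives gave 0.0145 to 0.153), and the call held in 6 of 18 alternatives. The P3 mean of Tube1, 5.64, lay just under 5.66. Tuba3a, Tuba3b and Tubal3 were dim and did not pass in any comparison, with changes between -0.12 and 0.34. With centred arrays Tuba3b (0.50, adjusted p = 0.0103) and Tubal3 (0.39, adjusted p = 0.00418) passed as higher in P3 than in fed rats. On that scale 6115 of the 14506 genes passed as higher.

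The genes that fold, modify and bind tubulin were counted from lists drawn up with earlier results of these data known. As background for these counts, 25.2% of all genes passed in either direction in P2 against fed (15.5% lower and 9.66% higher). In P3 against fed 45.4% passed (24.3% lower and 21.1% higher). With centred arrays the share of called genes that were higher moved from 46.5% to 69.6% in P3, so list counts in P3 are given on both scales. On the centred scale 2670 of the 14506 genes were lower and 6115 higher in P3.

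The first list holds genes of tubulin folding, which are prefoldin, the chaperonin that folds actin and tubulin, and the cofactors that join alpha to beta. In P2, 4 of 18 fell and 1 rose, at a median of -0.12, and in P3 5 fell and 7 rose, or 4 and 11 with centred arrays, at a median of 0.17. The prefoldin subunit gene Pfdn6 fell in both phases (-0.55 in P2 and -0.68 in P3), as did Tbcb, which holds newly folded alpha-tubulin (-0.58 and -0.47). In P3 Arl2, the small GTPase of the cofactor complex, fell by 0.54 and Pfdn1 by 0.57, whereas Tbcc, the cofactor that releases the finished dimer, rose by 0.58, the chaperonin subunit gene Cct5 by 0.37 and Pfdn2 by 0.36. In P2 the chaperonin subunit gene Cct3 fell by 0.37 and Pfdn5 rose by 0.35. Of the autoregulation genes 2 were measured, and Ttc5 was lower in P3, by 0.32 ± 0.0799 (adjusted p = 0.00422; alternatives gave 0.00239 to 0.0791, the last with centred arrays). In P2 Ttc5 did not pass (-0.05, adjusted p = 0.732). The other gene, Cnot1, named after its value was seen, passed in neither phase (-0.02 in P2, adjusted p = 0.914, and 0.01 in P3, adjusted p = 0.944).

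Tubulin modifying enzymes passed in both directions, and the shares that passed in either direction were near those of all genes. Of 19 measured, 4 fell and 1 rose in P2, and 8 fell and 2 rose in P3 (6 and 8 with centred arrays), with medians of -0.06 and 0.02. Tpgs2, a subunit of the tubulin polyglutamylase, was at 8.16, 8.05, 8.04 and 8.18 in fed rats, 7.53, 7.34, 7.38 and 7.45 in P2 rats and 6.99, 7.14, 6.77 and 7.05 in P3 rats, and fell by 1.12 ± 0.0874 in P3 (adjusted p = 1.38e-07). Ttll1, the catalytic subunit of the same enzyme, fell by 0.94 ± 0.0769 (adjusted p = 2.32e-07). Their partner Tpgs1, named after its value was seen, fell by 0.38 ± 0.103 (adjusted p = 0.0072). Atat1, which acetylates alpha-tubulin inside the microtubule, fell by 1.04 ± 0.0845 in P3 (adjusted p = 2.24e-07) and by 0.51 ± 0.0845 in P2 (adjusted p = 0.000561). The genes that rose, Vash2 (0.37 in P3) and Ttll11 (0.37 in P3), were dim, with means below 5.66 in all groups. The rise of Vash2 in P2 (0.29, adjusted p = 0.0426; alternatives gave 0.0201 to 0.131) ended in 9 of 18 alternatives, among them without any 1 fed rat, P2 rat 2 or 4 or P3 rat 4. The Ttll11 call (adjusted p = 0.0478; alternatives gave 0.00668 to 0.136) ended in 11 of 18 alternatives, among them without any 1 P2 rat, without fed rat 1 or 2 and without P3 rat 1, 3 or 4.

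The nucleation list, which holds the partners of Tubg1, had called genes in both directions, at shares not far from those of all genes. Of 12 genes 3 fell and 1 rose in P2, and 4 fell and 2 rose in P3 (3 and 5 with centred arrays), with medians of 0.02 and 0.09. Tubgcp2, a core subunit of the gamma-tubulin ring complex, fell by 1.00 ± 0.0722 in P3 (adjusted p = 6.43e-08) and by 0.57 ± 0.0722 in P2 (adjusted p = 6.51e-05). The augmin subunit genes Haus1 and Haus7, which serve branching of microtubules, fell by 0.69 and 0.51 in P3. Tubgcp3, the other core subunit, rose by 0.34 in P3, and Cdk5rap2, which activates the ring complex, by 0.48. In P2 Haus7 fell by 0.37 and Haus1 fell by 0.28, the second not with centred arrays or without fed rat 1, 3 or 4 or P2 rat 2 or 4. Tubgcp5, another ring complex gene, rose by 0.33 in P2, a call that ended without any 1 fed rat, any 1 P2 rat or P3 rat 4.

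Stabilisers and plus-end proteins changed in both directions. Of 27 genes, 7 fell and 3 rose in P2, and 10 fell and 7 rose in P3 (8 and 10 with centred arrays), with medians of -0.04 and -0.00. Dclk1, a doublecortin-like kinase that binds microtubules, was at 9.68, 9.68, 9.54 and 9.71 in fed rats, 8.24, 8.29, 8.07 and 8.16 in P2 rats and 7.32, 7.20, 7.53 and 7.30 in P3 rats. It fell by 2.32 ± 0.0857 in P3 (adjusted p = 2.11e-10) and by 1.46 ± 0.0857 in P2 (adjusted p = 7.73e-08). Map7, a stabiliser that recruits kinesin, went the other way, with 5.88, 5.98, 5.89 and 5.93 in fed rats, 6.27, 6.30, 6.70 and 6.46 in P2 rats and 8.07, 7.77, 7.70 and 7.64 in P3 rats. It rose by 1.87 ± 0.11 in P3 (adjusted p = 9.41e-09). The plus-end linker gene Clip2 fell by 0.99 and its relative Clip3 rose by 1.26 in P3. Mtus1 rose by 0.56 in P2 and 0.74 in P3, and Mapre1, which encodes the plus-end tracking protein EB1, fell by 0.44 in P2. Dcx, a relative of Dclk1 known from migrating neurons, fell by 1.03 in P3 and was dim. Mapt, which encodes tau, rose by 0.36 in P2, a call that ended without fed rat 2 or 3 or P2 rat 2. It was dim in fed rats, at a mean of 5.57.

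Of 13 destabilisers and severing enzymes, 3 fell and 1 rose in P2, and 4 fell and none rose in P3 (4 and 2 with centred arrays), with medians of -0.07 and -0.05. Stathmin, Stmn1, which binds free dimers, fell by 0.94 ± 0.187 in P2 (adjusted p = 0.00198), its relative Stmn4 by 1.05 in P2 and 1.12 in P3, and Kif2c, a kinesin that takes microtubules apart in mitosis, by 1.16 and 1.41. Kif2c was dim in fasted rats, at means of 4.59 and 4.34, so these are differences of measured levels and not shown to be exact. Fign, a severing enzyme gene, rose by 0.44 in P2, a call that ended without fed rat 2 or 3 or P2 rat 1, and fell by 0.50 in P3. Its P3 mean of 5.59 lay under 5.66 and was not shown to be above background. Of 37 motor genes, 9 fell and 4 rose in P2, and 11 fell and 4 rose in P3, which became 6 and 9 with centred arrays, with medians of -0.12 and -0.07. The 3 named by the smallest adjusted p among those that fell, in both phases, were Dynll1, Dynlt3 and Dynlt1, which encode light chains of dynein, the motor that moves toward the minus end. Dynll1 fell by 0.69 in P2 and 1.47 in P3, Dynlt3 by 0.77 and 1.21, and Dynlt1 by 0.61 and 0.65. Another light chain gene, Dynll2, was at 0.18 and 0.05 and did not pass, and the dynactin gene Dctn5 fell by 0.40 and 0.67; both were named after their values were seen. Dctn4, a dynactin subunit gene, rose by 0.76 in P3, and the dynein regulators Ndel1 and Bicd2 rose by 0.44 and 0.41. In P2 the kinesin genes Kif13a, Kif1a and Kif3c rose by 0.45, 0.39 and 0.58, the last not without fed rat 2 or P2 rat 1 or 2. Kif1a was dim in fed rats, at a mean of 5.55.

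Among the other filaments, 7 of 14 genes fell and 3 rose in P2, and 8 fell and 3 rose in P3 (6 and 3 with centred arrays), with medians of -0.26 and -0.31. Actb, the general actin, fell by 0.61 ± 0.0677 in P3 (adjusted p = 4.76e-06). Krt8, a keratin of mesothelium, fell by 1.09 in P2 and 1.47 in P3. Lmnb1, a lamin gene, fell by 1.08 in P2, and Nes, the intermediate filament gene nestin, fell by 0.34 in P2 and 0.98 in P3. The P3 mean of Nes, 5.44, lay under 5.66 and was not shown to be above background. The smooth muscle genes Actg2, Acta2 and Des rose in both phases, by 1.46, 0.63 and 0.79 in P2. The calls of Des in P2 and of Acta2 in P3 (0.37, adjusted p = 0.0247) each ended in 4 alternatives, all of which left out 1 rat: fed rat 3 or 4 or P2 rat 1 or 3 for Des, and fed rat 3 or 4 or P3 rat 1 or 4 for Acta2.

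**Figure D3:**
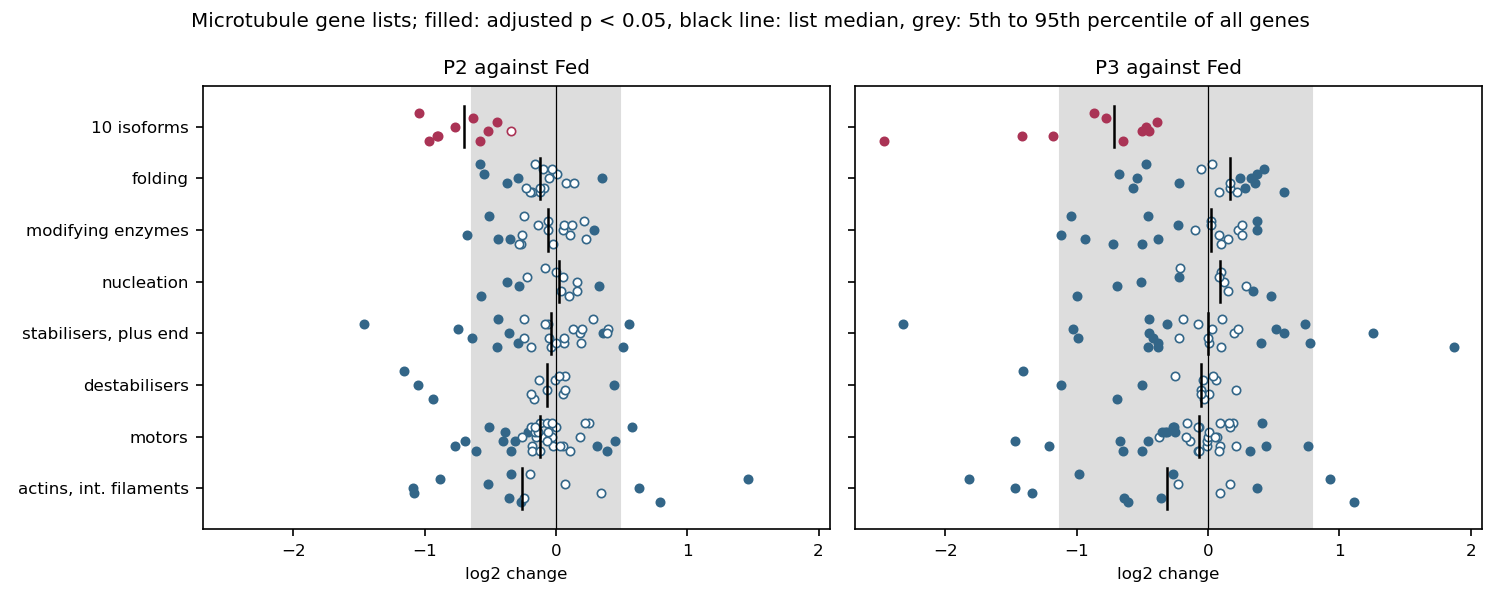
Log2 change of each gene (horizontal axis) in the isoforms and in 7 microtubule and filament lists, in P2 and P3 against fed rats; filled points had an adjusted p under 0.05, black lines are list medians and the grey band spans the 5th to 95th percentile of all genes. The isoforms have medians of -0.70 and -0.71, and the tubulin and microtubule lists have medians between -0.12 and 0.17. The actins and intermediate filaments have medians of -0.26 in P2 and -0.31 in P3.

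Markers of several cell types moved in the same samples. Over all genes 15.5% fell and 9.66% rose in P2, and 24.3% fell and 21.1% rose in P3. With centred arrays 2670 of the 14506 genes fell and 6115 rose in P3. Of 19 measured genes of mitosis and S phase, 18 fell in P2 and none rose, and 18 fell and 1 rose in P3 (17 and 1 with centred arrays). Their mean log2 level was 6.61 to 7.55 in fed, 5.74 to 6.06 in P2 and 5.45 to 5.60 in P3 rats. The P3 levels lay under 5.66, the 95th percentile of the olfactory receptor genes, so the size of this fall was not shown to be exact. Of 12 fibroblast and progenitor markers, 4 fell and none rose in P2, and 10 fell and 1 rose in P3 (10 and 2 with centred arrays), with mean levels of 10.37 to 10.52 in fed, 9.76 to 10.07 in P2 and 8.51 to 9.10 in P3 rats. Of 13 adipocyte markers, 2 fell and 2 rose in P2, and 12 fell and none rose in P3 (11 and 0 with centred arrays), with mean levels of 11.86 to 11.93 in fed, 11.59 to 11.71 in P2 and 9.72 to 10.62 in P3 rats. The median change of the adipocyte markers was -0.06 in P2 and -1.63 in P3, and in P2 leptin, Lep, had a change of -4.12 that weighs on the mean. Of 9 smooth muscle markers 9 rose in P2 and 8 in P3 (9 with centred arrays), and of 12 endothelial markers 9 rose in P2 and 7 in P3 (10 with centred arrays), and none of either list fell. Of 14 macrophage markers, 1 fell and 2 rose in P2, and 4 fell and 4 rose in P3 (1 and 6 with centred arrays). Of 8 mesothelial markers 5 fell and 1 rose in each phase, also with centred arrays. No marker list was at 0, since the array gives every gene a level. The part of these cells in the tubulin results was not tested.

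**Figure D4:**
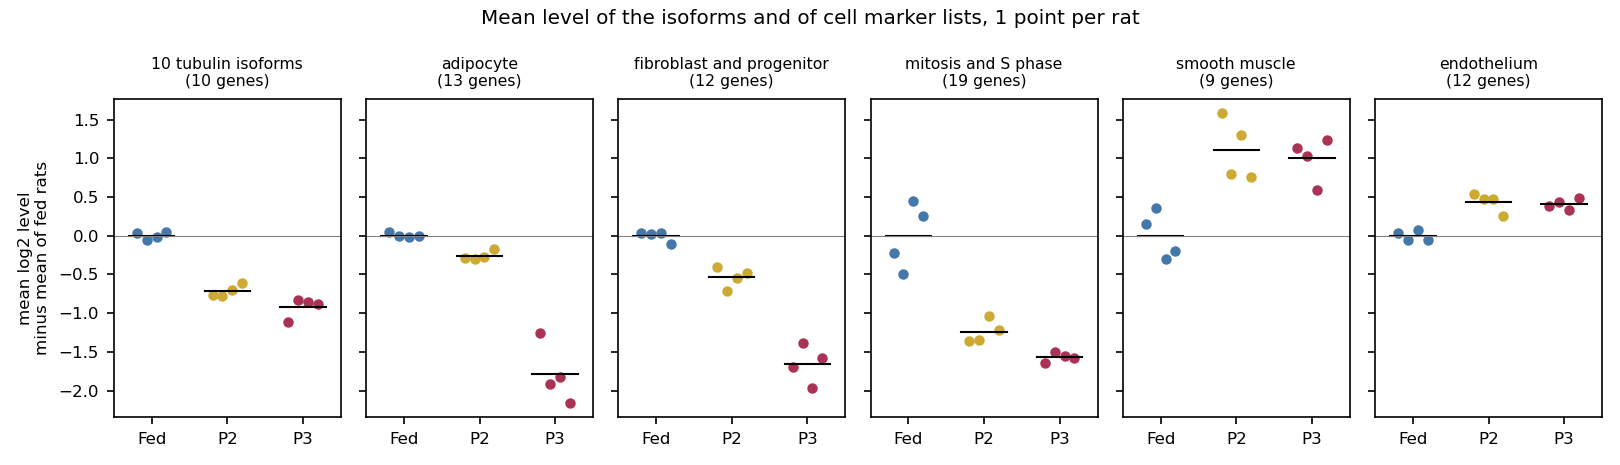
Mean log2 level minus the mean of fed rats (vertical axis) for the isoforms and 5 marker lists, with 1 point per rat and a black line at the group mean. The isoforms, the mitosis list and the fibroblast and progenitor list are lower in both phases, the last more so in P3. Adipocyte markers fall mainly in P3, and smooth muscle and endothelial markers lie above fed.

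The genes with the profile most like the 3 isoforms of largest change were found by the root mean square distance over the 12 arrays, after each gene's own mean was subtracted. Nearest to Tuba1a were Serpinf1, which encodes the secreted factor PEDF (distance 0.177), Pi15 (0.186) and Ghr, the growth hormone receptor (0.198). Nearest to Tuba1b were Sec61b, a subunit of the channel into the endoplasmic reticulum (0.0683), the cargo receptor gene Surf4 (0.107) and Cd44, a receptor for hyaluronan (0.111). Nearest to Tubb6 were Fkbp11, a prolyl isomerase of the endoplasmic reticulum (0.0955), Fam3b (0.127) and again Surf4 (0.132). Fam3b was dim in fasted rats, at means of 4.91 in P2 and 4.75 in P3. Serpinf1 changed by -0.92 in P2 and -2.59 in P3, and Sec61b by -0.95 and -1.45.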

How the data were processed

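The authors deposited log2 values, 1 per probe set and array (Affymetrix Rat Gene 1.0 ST); the submitters' processing notes list RMA, GCOS and Affymetrix Expression Console 1.1. RMA settings and library version are not given in the sources used here, and detection calls and scan batches were not used. The number of arrays limits the precision.

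Of 29215 probe sets, 15310 had 1 gene in the platform annotation, 323 several and 13582 none; only the first kind was named. The brightest probe set stood for each of 527 genes with more than 1, which left 14506 genes, of which 14481 matched RefSeq (GRCr8) by Entrez number. Tubb1, Tubb4a and Tubg2 were not analysed here. Groups came from the sample titles. The limma package (3.58.1, R 4.3.3) fitted 1 mean per group to all 12 arrays with lmFit and moderated the variances with eBayes, after a test on simulated data. Benjamini-Hochberg adjustment covered all 14506 genes, and calls required an adjusted p under 0.05. Each change is the difference of group means, with the SE from limma. Python 3.11.15, pandas 2.3.3 and matplotlib 3.10.9 made the tables and plots. Members and lists were chosen with earlier results of these data known. From each list the text names up to 3 called genes per direction and phase with the smallest adjusted p, and 3 genes nearest in profile for each of 3 isoforms. The 19 alternatives were quantile normalisation, median centring, leaving out the dimmest 40% of genes, fitting only the groups compared, a trend and robust prior, the mean of a gene's probe sets, the replicate number as a block, and leaving out each rat.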

Additional observations from a re-analysis of the deposited data

How the results depend on the processing

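The counts of isoforms that fell in P2 and P3 against fed rats stayed within 1.5 times under all 19 alternatives, as did the number of all genes called (2850 to 4354 in P2 against fed, 5660 to 8785 in P3 against fed and 3347 to 4798 in P3 against P2). The count of isoforms higher in P3 than in P2, which is Tubb2a alone, was 0 when only the groups compared were fitted and 0 to 1 when 1 rat was left out. Without the dimmest genes Tubb2b and Tubb3 were left out before the test, so these counts covered 8 isoforms. That alternative also tested fewer genes in all. Its 3527 calls in P2 and 5660 in P3 against fed rats are therefore a larger share of the tested genes than in the main fit. With centred arrays 53% of the genes called in P2 against fed and 64.9% of those called in P3 against P2 were higher, against 38.4% and 45.8% as deposited.

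Changes that turned in sign were all uncalled on both sides. In P3 against P2, Tubb5 was at 0.0278 with centred arrays and between -0.111 and 0.00158 when 1 rat was left out (above 0 without P3 rat 1), and Tubb2b between -0.00226 and 0.0912 (below 0 without P2 rat 3). In P3 against fed, Tuba3a was at 0.144 with centred arrays and between -0.12 and 0.0861 when 1 rat was left out. Tuba4a was at 0.0658 with quantile normalisation, 0.0544 with centred arrays and between -0.192 and 0.024 when 1 rat was left out. In P2 against fed, Tubd1 was at 0.00619 with quantile normalisation and 0.00907 with centred arrays.

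Same-numbered rats of different groups share only a number: their deviations from the group means correlated between -0.155 and 0.188. With the number as a replicate block, Tuba1c passed in P2 against fed (adjusted p = 0.0354), 9 isoforms having passed without it, and no other isoform changed its call; Tubgcp5 and Vash2 lost theirs in P2. Dim levels of Tubb2b, Tubb3 and Tuba8 limit what their changes can show.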
